A study of Rattus norvegicus with 8 samples.

Results

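Genes of the unfolded protein response and of the integrated stress response were examined in the hippocampal dentate gyrus (DG) of rats after status epilepticus (SE), with and without estradiol (E2) replacement. The set held 10 genes, namely Hspa5, Herpud1, Eif2ak3, Atf6, Xbp1, Atf4, Atf5, Ddit3, Trib3 and Asns, and a gene was taken from the arrays when the gene name printed for a non-control spot equalled its symbol. This gave 11 spots for 9 genes out of 43379 non-control spots with 35250 gene names, and 8 of the 9 genes were among the 21372 genes that could be tested. Xbp1 had no spot under this rule and was not analysed here. Trib3 had 1 spot, which did not reach the signal required in all rats, so it was left out of the main fit.

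All 8 rats were adult ovariectomized female Sprague-Dawley rats in which kainic acid had induced SE, and they differed in the injections given. The 4 COS rats (castrated, oil-injected, SE) received oil, and the 4 CES rats (castrated, E2-replaced, SE) received E2. The sample records give 4 doses of 2 µg of estradiol at intervals of 24 h, with 2 doses before SE and 2 after it, a kainic acid dose of 16 mg/kg, and pentobarbital given after 5 h to stop SE. The published methods differ from these records in the kainic acid dose, the timing of the injections and the drug that ended SE, and they give more than 1 collection time, so the interval between SE and tissue collection is not settled. Rats without SE were not analysed here, and every difference below is therefore between E2-replaced and oil-injected rats that all had seizures. RNA of each rat was labelled with Cy3 (replicates 1 and 3) or Cy5 (replicates 2 and 4), and the 2 rats on an array belonged to the same group.

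The endoplasmic reticulum (ER) folds secreted and membrane proteins, and an excess of unfolded protein there starts the unfolded protein response. Its sensors are PERK (the product of Eif2ak3), ATF6 and IRE1, the last of which splices the Xbp1 transcript. PERK also belongs to the integrated stress response, in which several kinases phosphorylate the translation factor eIF2, general protein synthesis falls and translation of ATF4 rises. ATF4 then drives genes of amino acid supply and, under lasting stress, CHOP (the product of Ddit3), a transcription factor linked to cell death. Because ATF4, ATF5 and PERK are regulated to a large extent at the level of protein or phosphorylation, an array reads only the transcript part of the pathway. Seizures are known to engage these responses in hippocampal neurons.

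The probes carry the measurement, so the sequences of those on which the results turn are shown first, 5′ to 3′, with positions in rat build rn4 as the array files give them. The probes of Atf4 and of Ddit3 are given whole. The Ddit3 probe spans 362 bases of genome with 60 bases of sequence and so crosses an intron. Atf6 and Herpud1 each had a pair of probes at different positions of the transcript, which are compared further on, and for each pair the upstream probe is given whole and the last 30 bases of the downstream probe are given. For Trib3 and Atf5 the last 30 bases are shown, with the letters AATAAA, the spelling of a polyadenylation signal, in capitals. Whether these letters act as that signal was not tested, and the probes were not placed on transcript sequences.
Atf4, chr7:118538840-118538899, plus strand: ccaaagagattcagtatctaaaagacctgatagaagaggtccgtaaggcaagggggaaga
Ddit3, chr7:67251675-67252036, plus strand: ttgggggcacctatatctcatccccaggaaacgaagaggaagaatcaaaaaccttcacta
Atf6 upstream, chr13:86673253-86687904, minus strand: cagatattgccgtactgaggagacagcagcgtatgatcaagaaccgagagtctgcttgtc
Atf6 downstream, chr13:86542790-86542849, minus strand: tgtcagataccaagaggaccctgctgttta
Herpud1 upstream, chr19:11040019-11040078, minus strand: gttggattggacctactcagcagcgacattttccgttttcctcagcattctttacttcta
Herpud1 downstream, chr19:11036709-11036768, minus strand: tactactttatataatcagtgacttgctag
Trib3, chr3:142664064-142664123, minus strand: tttcaccatgtgcccAATAAAagagagctg
Atf5, chr1:95284097-95284156, minus strand: tccaggggttgtgggctcaAATAAAatgca
The remaining probes lie at chr4:104075118-104077133 on the plus strand for Eif2ak3, where the probe crosses an intron, at chr4:32759136-32759195 on the minus strand for Asns, and at chr3:13787739-13787798 on the plus strand for Hspa5.

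Levels are log2 values of the background-subtracted signal relative to the median of all valid spots of the same channel, where a spot was valid if its foreground was at least 2 times its background. A level of 0 is thus the median valid spot, and levels of different genes are not comparable, since each probe has its own response. Differences are CES minus COS and were tested with limma across all tested genes with Benjamini-Hochberg adjustment. The median gene was lower in CES by 0.25 on this scale, so a difference relative to that median is given as well. A gene is called at an adjusted p under 0.05. Nothing in the records says more of the replicates than that they are separate rats, and the tissue is a mixture of cells, in which fewer cells of a type and less RNA per cell cannot be told apart.

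Among the 8 tested members the differences were largest for the transcription factor genes Atf5, Atf4 and Ddit3. These 3 were lower in CES by 1.79-fold to 2.28-fold, the ER stress gene Herpud1 by 1.69-fold, and the sensor genes Eif2ak3 and Atf6 by less, whereas Hspa5, the main ER chaperone, and Asns did not pass the test. In all, 6 of the 8 tested members were called lower in CES and 0 were called higher, beside 28.3% and 5.79% of all tested genes. At an unadjusted p under 0.05, 7 members passed, the seventh being Asns, beside 9657 of the 21372 tested genes in either direction. In 6 of the 8 members the CES rats were all below the COS rats, beside 19.8% of all genes. The median member differed by −0.71, or −0.45 relative to the median gene, and 7 of the 8 lay below the median gene. Under loess normalization with quantile scaling of the average signal between arrays, 3 members were called lower (Atf4, Ddit3 and Herpud1), beside 10.4% of all genes, and 0 were called higher, beside 15.5%. That setting, named the loess and quantile scaling below, also replaced the plain background subtraction by normexp correction with an offset of 50. Single rats also decided part of the count, which was 0 without COS replicate 3 and 3 without CES replicate 1. Without COS replicate 3, 5 members passed an unadjusted p under 0.05 (limma), beside 7055 of all genes. The count over all genes called lower fell as well, from 6054 to 888 without COS replicate 3 and to 2458 without CES replicate 1.

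**Figure D1:**
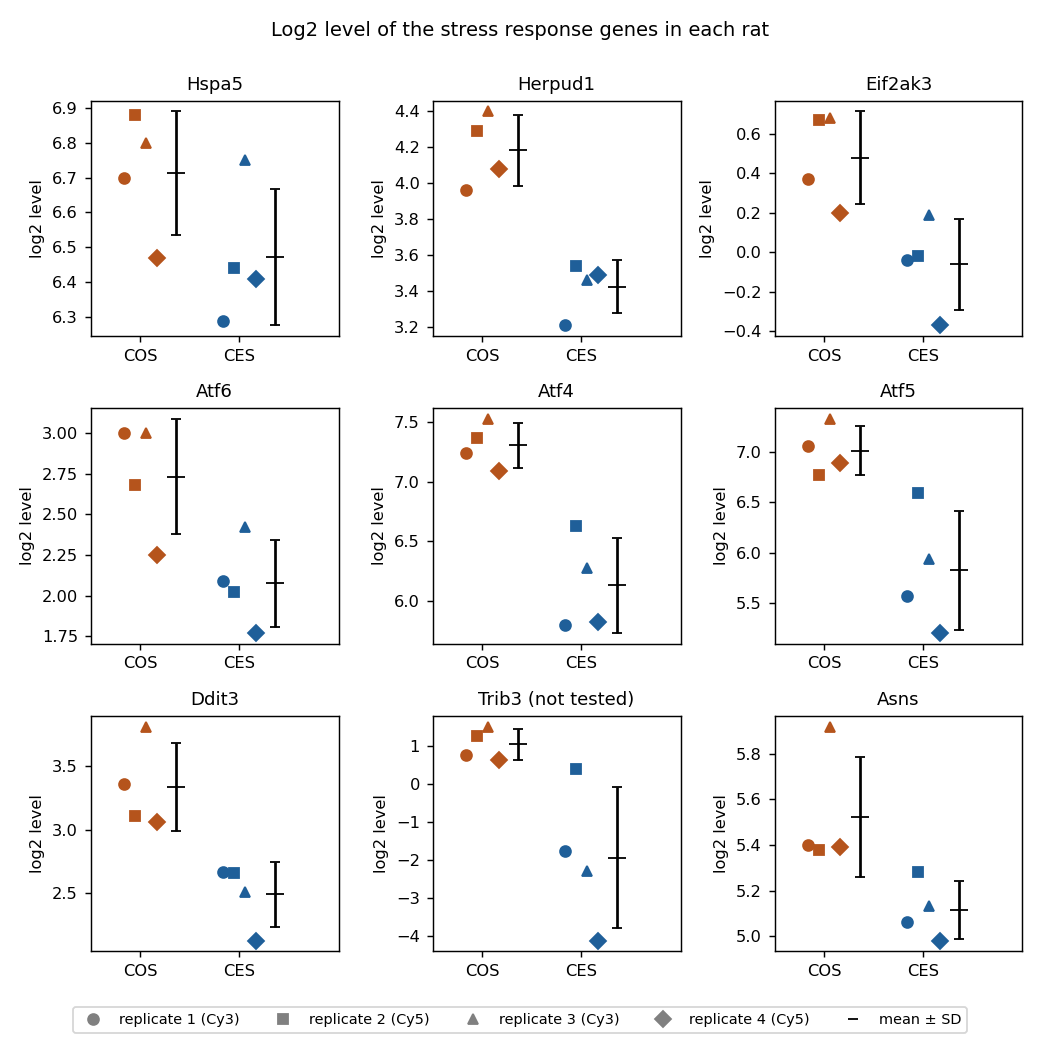
Log2 level of each gene in each rat on the vertical axis, with its own scale in each panel, for the 4 COS and 4 CES rats. Symbols give the replicate number and its dye, and the bars beside them give the mean ± SD. The groups are apart in Herpud1, Eif2ak3, Atf4, Atf5, Ddit3, Trib3 and Asns, and overlap in Hspa5 and Atf6.

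Atf4 encodes the transcription factor at the centre of the integrated stress response. Its level was 7.24, 7.37, 7.53 and 7.09 in COS replicates 1 to 4 and 5.79, 6.63, 6.27 and 5.82 in CES replicates 1 to 4. The groups did not overlap, and the CES rats were spread more widely, with replicate 2 nearest to the COS rats. The difference was −1.18 (SE 0.22, n = 4 per group, limma adjusted p = 0.00569), a 2.26-fold lower level, and −0.92 relative to the median gene. Of all genes, 7.56% had a relative difference as low or lower. Atf4 kept its call in 20 of the 24 alternative settings, with adjusted p from 0.000447 to 0.164 and relative differences from −1.10 to −0.79.

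Atf5 encodes a related factor of the same family, whose translation also rises when eIF2 is phosphorylated. The COS rats had levels of 7.06, 6.77, 7.33 and 6.89, and the CES rats 5.57, 6.59, 5.94 and 5.20. The groups did not overlap, but CES replicate 2 came close to COS replicate 2 and stood well above the other CES rats. Atf5 differed by −1.19 (SE 0.28, 2.28-fold lower, limma adjusted p = 0.0125), or −0.94 relative to the median gene, as was reached by 7.38% of genes. The CES rats had an SD of 0.60, against 0.24 in COS, and the call held in 13 of 24 alternatives, with adjusted p up to 0.215.

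Ddit3, the gene of CHOP, was measured at 3.36, 3.11, 3.81 and 3.06 in COS and at 2.67, 2.66, 2.51 and 2.13 in CES. All CES rats were lower, and the highest value was that of COS replicate 3. The difference was −0.84 (SE 0.19, limma adjusted p = 0.0101), a 1.79-fold lower level. Relative to the median gene it was −0.59, which 16.0% of genes reached. The call of Ddit3 held in 17 of 24 alternatives, with adjusted p between 0.00198 and 0.408.

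Trib3 encodes a pseudokinase induced by ATF4 and CHOP that feeds back on ATF4. Its spot gave a signal over background of 12.5, 37.4, 14.9 and 29.7 in COS replicates 1 to 4. In CES the ratio was 2.64, 22.3, 2.01 and 1.89, so that replicate 4 missed the required 2 and the gene was not tested in the main setting. By the flag of the scanner software the spot was well above background in all 4 COS rats but in only 1 of the 4 CES rats, replicate 2. The log2 levels were 0.76, 1.27, 1.51 and 0.64 in COS and −1.77, 0.39, −2.27 and −4.11 in CES, where the low values rest on signals close to background and bound rather than measure the level. The groups did not overlap, and an exact permutation test gave p = 0.0286 (two-sided, n = 4 per group), the smallest it can give with 4 against 4. With no requirement on valid spots, limma gave −2.98 (SE 0.86, adjusted p = 0.0649). When CES replicate 4 was left out the spot was valid in every remaining rat, and Trib3 was called lower (−1.98, SE 0.37, limma adjusted p = 0.00498). The first size rests on signals near background in 3 CES rats and the second on those of CES replicates 1 and 3. Neither is a measured fold.

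Asns encodes asparagine synthetase, a target of ATF4 in amino acid shortage. It had levels of 5.40, 5.38, 5.92 and 5.39 in COS and 5.06, 5.28, 5.13 and 4.98 in CES. The groups did not overlap, but 3 COS rats lay close together and replicate 3 stood above them. The difference of −0.41 (SE 0.18, 95% interval −0.81 to −0.02) did not pass the adjustment (limma adjusted p = 0.0985). Relative to the median gene it was −0.16, which 39.0% of genes reached. Asns was called lower in 2 of the 24 alternatives, when the dye term was dropped (limma adjusted p = 0.0491) and when CES replicate 2 was left out (−0.50, adjusted p = 0.0498). The sign of the difference turned under 2 of the 24 alternatives, with values of 0.04 over spots well above background and 0.000222 in the deposited log2 table.

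Hspa5 encodes BiP, the most abundant ER chaperone and the repressor of the ER sensors at rest. The COS levels were 6.70, 6.88, 6.80 and 6.47 and the CES levels 6.29, 6.44, 6.75 and 6.41. The groups overlapped, with CES replicate 3 above 2 of the COS rats. The difference was −0.24 (SE 0.17, 95% interval −0.63 to 0.14, limma adjusted p = 0.302), and relative to the median gene it was 0.01. Its sign turned in 5 of 24 alternatives, those of loess, quantile and shared-spot scaling, of spots well above background and of the deposited log2 table. From the scanner's own processed signal it was instead called lower, at −0.58 (SE 0.19, limma adjusted p = 0.0436) and −0.29 relative to the median gene. The interval leaves room for a fall of up to 0.63, so that these data do not show that Hspa5 was the same in both groups.

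Herpud1 encodes an ER membrane protein of ER-associated degradation that ER stress induces. It stood at 3.96, 4.29, 4.40 and 4.08 in COS and at 3.21, 3.54, 3.46 and 3.49 in CES. The groups were 0.42 apart at their nearest rats, and both were narrow, with SD of 0.20 and 0.15. Herpud1 differed by −0.76 (SE 0.17, limma adjusted p = 0.00976), or −0.50 relative to the median gene, which 19.4% of genes reached. Herpud1 kept the call in 18 of 24 alternatives, with adjusted p from 0.00228 to 0.489.

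The sensor genes fell by smaller amounts. Eif2ak3 had levels of 0.37, 0.67, 0.68 and 0.20 in COS and −0.04, −0.02, 0.19 and −0.37 in CES. The nearest rats of the groups were 0.01 apart. The difference was −0.54 (SE 0.18, limma adjusted p = 0.0450), or −0.28 relative to the median gene, which 30.8% of genes reached. Eif2ak3 was called in 9 of 24 alternatives, with adjusted p up to 0.837. Atf6 had levels of 3.00, 2.68, 3.00 and 2.25 in COS and 2.09, 2.02, 2.42 and 1.77 in CES, where CES replicate 3 lay above COS replicate 4. Its difference was −0.65 (SE 0.17, limma adjusted p = 0.0185), or −0.40 relative to the median gene, which 24.3% of genes reached. Atf6 was called in 11 of 24 alternatives, with adjusted p up to 0.625.

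**Figure D2:**
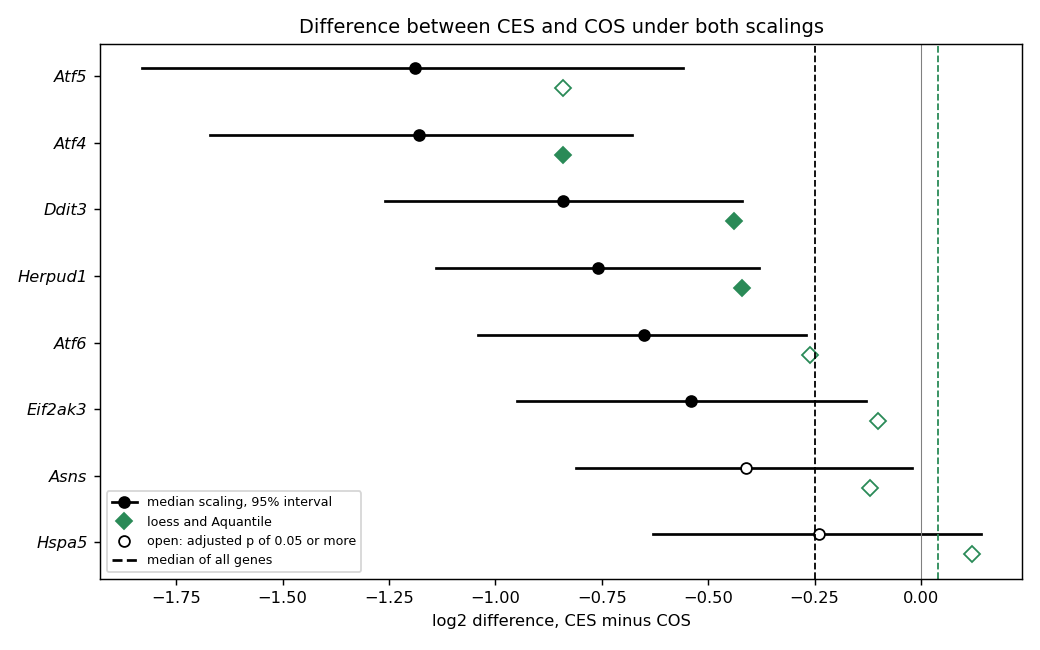
Difference in log2 level, CES minus COS, on the horizontal axis for the 8 tested genes. Black circles with 95% intervals use the scaling to the median valid spot. Green diamonds use the loess and quantile scaling after normexp background correction. Open symbols have an adjusted p of 0.05 or more, and dashed lines mark the median of all genes in each setting, −0.25 and 0.04. Atf4, Ddit3 and Herpud1 are filled in both, and Atf4 and Atf5 lie farthest to the left in both.

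The order of the rats was set beside their order over all genes. COS replicate 3 was the highest COS rat in 7 of the 8 members, beside 69.9% of all genes. It also had the largest share of valid spots among the rats, 88.9%, where the others ranged from 70.7% to 86.9%. CES replicate 2 was the highest CES rat in 4 of the 8 members, Herpud1, Atf4, Atf5 and Asns, and in Trib3, beside 16.4% of all genes and 45.7% of the genes called lower in CES. CES replicate 4 was the lowest CES rat in 5 members, and COS replicate 4 the lowest COS rat in 5. These rats also had the smallest share of valid spots in their groups, 70.7% and 74.6%. The shares of all genes in which they were lowest were not computed, so these counts are not read as a trait of the members.

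A difference between genes of the same rat does not depend on the constant by which its channel is divided. Hspa5, the member nearest to the median gene, was therefore taken as the reference for the other 7, a choice made after the values had been seen. Hspa5 also had the smallest difference of the tested members, so this choice fixed the direction of the 7 values in advance. They restate the differences relative to the median gene and give no further support for them. Relative to Hspa5 in the same rat, Atf5 differed by −0.95 (SD 0.28 in COS and 0.58 in CES), Atf4 by −0.93 (SD 0.11 and 0.36), Ddit3 by −0.60, Herpud1 by −0.52, Atf6 by −0.41, Eif2ak3 by −0.30 and Asns by −0.17. The groups did not overlap for Atf4, Herpud1 and Eif2ak3, each with an exact permutation p of 0.0286 (two-sided, n = 4 per group, the smallest possible), which became 0.0667 after Benjamini-Hochberg adjustment over the 7 comparisons. None of the 7 differences thus passed adjustment in this test, and for 3 of them no smaller p could have been reached. These values still depend on the background correction and on scalings that vary with the signal. With the processed signal Hspa5 itself differed by −0.58, Eif2ak3 by −0.55 and Asns by −0.33. Atf4, Atf5, Atf6, Ddit3 and Herpud1 still fell further than Hspa5 there.

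The probe pairs of Atf6 and Herpud1 allowed the same comparison within a gene. For Atf6, the upstream probe, which crosses an intron, differed by −0.38 between the groups (SE 0.15, limma adjusted p = 0.0771, all probes fitted singly), and the downstream probe by −0.78 (SE 0.19, adjusted p = 0.0141). The upstream minus downstream difference was −1.27, −1.57, −1.44 and −1.33 in COS and −0.59, −1.26, −1.09 and −1.07 in CES. All CES values were above all COS values, by 0.01 at the nearest pair, with means of −1.40 ± 0.13 and −1.0 ± 0.29 (SD, n = 4 each, exact permutation p = 0.0286, two-sided). For Herpud1 the upstream probe differed more, by −1.0 (SE 0.18, adjusted p = 0.00513), and the downstream probe by −0.68 (SE 0.17, adjusted p = 0.0138).

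The upstream minus downstream difference of Herpud1 was −1.41, −1.35, −1.35 and −1.50 in COS and −1.78, −1.79, −1.56 and −1.81 in CES, so here every CES rat lay below. The means were −1.40 ± 0.07 and −1.73 ± 0.12 (SD, n = 4 each, exact permutation p = 0.0286, two-sided). With adjustment over both pairs the p-values stayed at 0.0286, the smallest this test can give. In these rats the probes of a pair thus changed unequally in both genes, in opposite orders along the transcript. How often the probe pairs of other genes separate the groups was not computed, so this is not shown to be particular to Atf6 and Herpud1. Signal over background, probe response and transcript forms were not separated by these data.

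**Figure D3:**
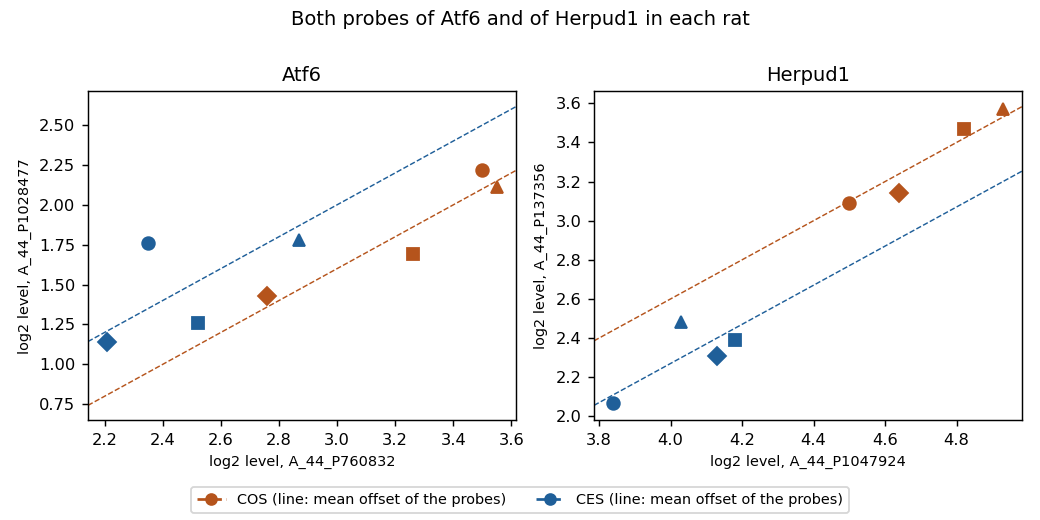
Log2 level of the upstream probe (vertical axis) against the downstream probe (horizontal axis) in each rat, for Atf6 on the left and Herpud1 on the right. Dashed lines run parallel to equality at the mean offset of the probes in each group, −1.40 for both genes in COS, and −1.0 for Atf6 and −1.73 for Herpud1 in CES, and symbols mark the replicates as in the plot of levels by rat.

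Whether the members share regulatory sequence was read from RefSeq promoters of rat build GRCr8, each running from 250 bases before to 50 bases after the start of the gene. Promoters were found for 9 of the 10 genes, Atf6 being the exception. Both strands were searched for the ER stress element (CCAAT and CCACG with 9 bases between them), for its second form (ATTGG and CCACG with 1 base between them), for the amino acid response element core TGATGNAA that ATF4 binds with its partners, for the cAMP response element TGACGTCA and for TGACGTGG, the core of the unfolded protein response element. Windows with a match are shown for the measured members, so that the spellings can be compared between Hspa5, Herpud1 and Trib3, with the match in capitals and 5′ to 3′ on the strand of the gene.
Hspa5, chr3:38452943-38453015, plus strand, ER stress element: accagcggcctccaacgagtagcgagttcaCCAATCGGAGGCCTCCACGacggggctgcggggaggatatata
Herpud1, chr19:10614791-10614861, minus strand, ER stress element, second form: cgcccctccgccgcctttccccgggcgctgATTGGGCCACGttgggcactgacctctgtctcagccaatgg
Herpud1, chr19:10614854-10614921, minus strand, amino acid response element core on the opposite strand: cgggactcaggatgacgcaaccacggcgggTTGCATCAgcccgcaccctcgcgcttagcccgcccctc
Trib3, chr3:161275534-161275584, minus strand, amino acid response element core on the opposite strand: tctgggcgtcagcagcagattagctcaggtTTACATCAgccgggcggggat

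The match of Hspa5 lay 43 to 25 bases before the start, those of Herpud1 at 124 to 114 and 184 to 177, and that of Trib3 at 21 to 14. Xbp1 also held an ER stress element, at 65 to 47 bases before the start. Of the 33469 promoters in the table, 0.0657% held the ER stress element, 0.0508% its second form, 3.98% the amino acid response element core, 1.83% the cAMP response element and 0.595% the unfolded protein response element core. Among the 72 promoters found for the other pathway genes, 7 held the ER stress element, 2 its second form, 10 the amino acid response element core, 1 the cAMP response element and 2 the unfolded protein response element core. Hspa5, with the ER stress element alone, did not pass the test, and Herpud1, with a match of both kinds, was lower in CES. Atf4, Atf5, Ddit3, Eif2ak3 and Asns held no match in this window. These are matches of letters and were not tested as binding sites, and no link between the matches and the differences was tested.

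The wider pathway was described with 82 other genes in 6 groups, of which 74 were tested. In all, 49 of the 74 were called lower in CES, or 66.2%, and 1 was called higher, beside 28.3% and 5.79% of all genes. Their median difference was −0.69, or −0.44 relative to the median gene, close to that of the members. Under the loess and quantile scaling 23 were called lower and 3 called higher, with a median of −0.30. Between the other scalings the count called lower ran from 4 after normexp background correction to 45 with the processed signal, and the median stayed below 0 in each. Without COS replicate 3 the count fell to 10, and that of all genes called lower fell from 6054 to 888. These groups were chosen with earlier results of the same rats known, so the counts are a description and no list was tested as such.

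The group nearest to Atf4, Ddit3 and Trib3 is that of ATF4 and CHOP target genes, of which 20 were tested, 14 called lower and 1 called higher. Nupr1, a small stress-induced chromatin regulator, had the largest fall, −2.54 (SE 0.49, limma adjusted p = 0.00620), with levels of 3.78, 3.76, 3.99 and 2.76 in COS and 0.95, 2.56, 0.59 and 0.05 in CES. As in Atf5, CES replicate 2 stood far above the other CES rats. Cebpb, a transcription factor, differed by −1.87 (SE 0.25, adjusted p = 0.00358), Chac1, a glutathione-degrading enzyme, by −1.71 (SE 0.29, adjusted p = 0.00474), and Mthfd2, an enzyme of mitochondrial folate metabolism, by −1.65 (SE 0.21, adjusted p = 0.00341).

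Pck2, the mitochondrial phosphoenolpyruvate carboxykinase, was the single gene of the group that was called higher in CES, by 0.54 (SE 0.16, limma adjusted p = 0.0305). It had levels of 1.82, 1.88, 1.86 and 1.55 in COS and 2.43, 2.00, 2.57 and 2.27 in CES, which did not overlap. It was above 0 under all 6 other scalings and called in 4 of them. Psat1 (0.24), Ddit4 (0.14) and Phgdh (0.03) were also above 0, here and under all 6 other scalings, but were not called. Nupr1, Cebpb and Chac1 were called lower under all 6, and Mthfd2 under 5. The median of the group was −1.09, the lowest of the 6 groups, and −0.84 relative to the median gene.

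Of 11 genes for eIF2 kinases, eIF2 and its exchange and phosphatase subunits, all were tested and 9 were called lower, with a median of −0.78. Ppp1r15a, the stress-induced subunit that directs eIF2 dephosphorylation (GADD34) and a target of CHOP, differed by −2.50 (SE 0.50, limma adjusted p = 0.00666). Its levels were 3.65, 4.13, 3.90 and 3.19 in COS and 1.59, 2.69, 0.43 and 0.14 in CES, again with CES replicate 2 nearest to COS. Eif2b1 and Eif2b2, subunits of the exchange factor that eIF2 phosphorylation inhibits, differed by −1.18 and −0.88 (adjusted p = 0.00417 and 0.0150). Eif2ak2, the kinase PKR, differed by −0.92 (adjusted p = 0.0140). Ppp1r15a was called under all 6 other scalings, Eif2b1 under 5, and Eif2b2 and Eif2ak2 under 1 each.

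Aminoacyl-tRNA synthetases, many of them ATF4 targets, were called lower in 7 of 9 tested genes, with a median of −0.70. Wars1 differed by −1.17, Tars1 by −1.16, Eprs1 by −0.92 and Nars1 by −0.90, with limma adjusted p of 0.0143, 0.00474, 0.0115 and 0.00950. Tars1 kept its call in 5 of the 6 other scalings, Nars1 in 3, and Wars1 and Eprs1 in 1.

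ER chaperones and folding enzymes were called lower in 12 of 17 genes, with a median of −0.66, although Hspa5 itself did not pass. The 4 largest differences with groups apart were those of P4hb, a protein disulfide isomerase, by −1.23 (SE 0.25, limma adjusted p = 0.00688), of Dnajc3, a cochaperone that inhibits PERK, by −1.11 (SE 0.19, adjusted p = 0.00487), of Sdf2l1 by −1.04 (SE 0.19, adjusted p = 0.00557) and of Dnajb9, a cochaperone of BiP, by −0.91 (SE 0.18, adjusted p = 0.00680). P4hb, Dnajc3 and Sdf2l1 were called under 5 of the 6 other scalings and Dnajb9 under 2.

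In the remaining groups the shares called were closer to that of all genes. For ER-associated degradation and translocation 5 of 12 tested genes were called lower, and the median of −0.23 stood at 0.03 relative to the median gene and turned above 0 under 4 other scalings, up to 0.17. Derl1, which helps to draw proteins out of the ER, differed by −0.98 (limma adjusted p = 0.00664), Sec61b, a subunit of the translocation channel, by −0.70 (adjusted p = 0.0166), and Sel1l, the partner of the ubiquitin ligase HRD1, by −0.63 (adjusted p = 0.0334). Of 5 tested genes for other sensors, proteases and ER-bound transcription factors, Creb3 differed by −0.85 (limma adjusted p = 0.00728) and Creb3l1 by −0.46 (adjusted p = 0.0489). The median of these 5 was −0.13, and it was likewise above 0 under 4 other scalings. Derl1 and Creb3 were called under 5 of the 6 other scalings, Sel1l and Creb3l1 under 1 each and Sec61b under none.

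**Figure D4:**
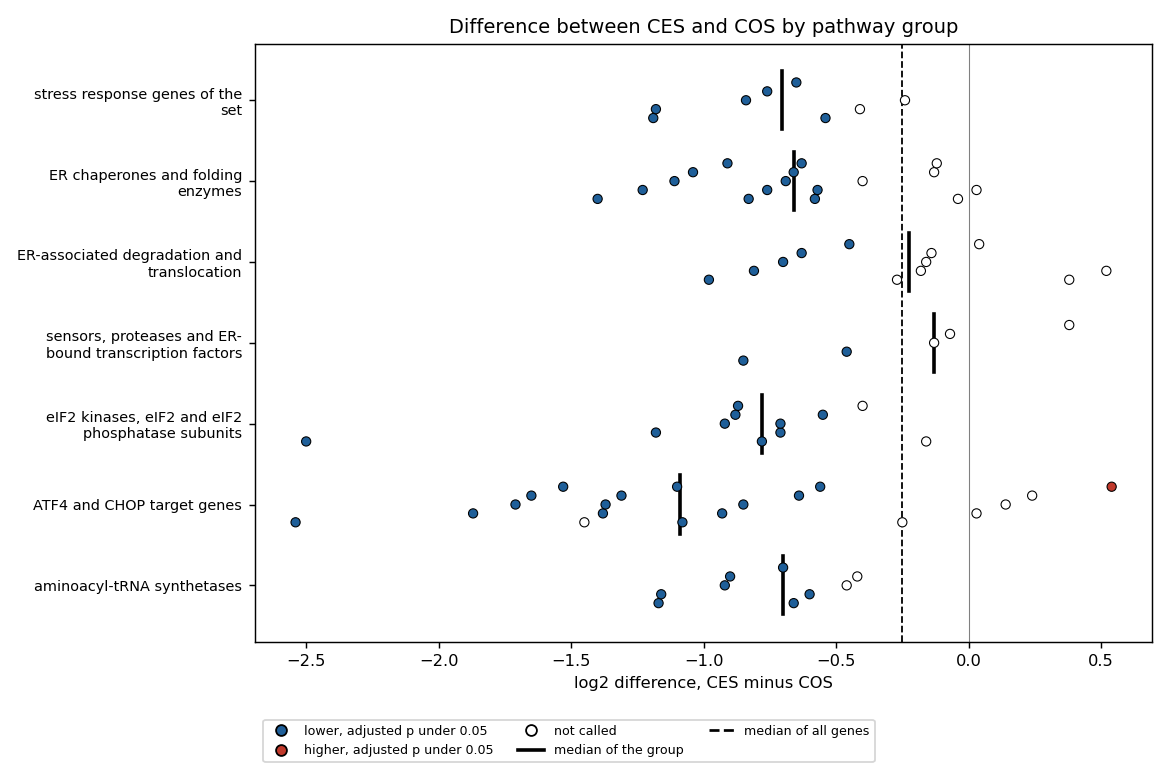
Difference in log2 level, CES minus COS, on the horizontal axis for each tested gene, 1 point per gene, in the set itself (top) and in the 6 groups of other pathway genes. Blue points were called lower, red points higher and open points not called, thick bars mark the median of each group and the dashed line the median of all genes at −0.25. ATF4 and CHOP target genes have the lowest median, −1.09, and the single point called higher, Pck2.

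Other markers moved with these differences. The log2 of the summed level of 5 neuronal activity genes (Fos, Arc, Egr1, Junb and Nr4a1) ranged from 6.91 to 8.08 in COS and from 5.71 to 6.72 in CES, without overlap (exact permutation p = 0.0286, two-sided, n = 4 per group). All 5 were called lower, and Fos differed by −4.25, with CES replicate 2 at 3.73 and the other CES rats between −0.22 and 0.25. The same sum over 5 microglial markers (Aif1, Itgam, Csf1r, Cx3cr1 and Cd68) ranged from 4.91 to 5.53 in COS and from 4.05 to 4.60 in CES (exact permutation p = 0.0286), with 3 of 5 called lower and Cd68 at −2.19. Under the loess and quantile scaling 3 activity genes and 2 microglial markers were called lower. Only genes with a valid signal in every rat entered the fit and these sums. A further listed activity gene, Npas4, did not enter. Its signal was well above background in 3 COS rats and 0 CES rats. The part of the activity and microglial genes in the differences of the stress response genes was not tested.

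Markers of neurons (8.25 to 8.64 in COS, 8.48 to 8.97 in CES), of dentate granule cells (4.01 to 4.86 and 4.23 to 4.64) and of astrocytes (7.35 to 7.48 and 6.82 to 7.51) overlapped between the groups as log2 of the summed level, a sum led by the probes of highest signal. Single markers within these lists did differ, in both directions. Of 4 tested neuronal markers, Stmn2 (0.79, groups apart, limma adjusted p = 0.0142) and Syt1 (0.59, adjusted p = 0.0272) were higher in CES. Of 4 tested granule cell markers, Neurod1 was higher (1.16, adjusted p = 0.00515), and Dsp (−1.24, groups apart, adjusted p = 0.00699) and C1ql2 (−1.23, adjusted p = 0.0104) were lower. Of 5 astrocyte markers, Aldh1l1 was higher (1.23, groups apart, adjusted p = 0.00651). Of 4 tested hippocampal pyramidal cell markers, Wfs1 (0.98, groups apart, limma adjusted p = 0.00957) and Cpne7 (0.80, adjusted p = 0.0389) were higher. Man1a1 (−1.25, groups apart, adjusted p = 0.0125) and Spink8 (−1.07, adjusted p = 0.0107) were lower. Under the loess and quantile scaling Stmn2, Syt1, Neurod1, Aldh1l1, Wfs1 and Cpne7 were still called higher. Dsp, C1ql2, Man1a1 and Spink8 were no longer called (adjusted p = 0.0652, 0.0565, 0.0848 and 0.0864). The part of these markers in the differences of the stress response genes was not tested. The granule cell factor Prox1 was not well above background in any of the 8 rats. The labelled tissue thus rests here on the other granule cell markers, which differed in both directions, as the pyramidal cell markers did. Summed markers of pyramidal cells, oligodendrocytes, endothelial cells and blood cells overlapped between the groups. Choroid plexus markers ranged from 3.75 to 9.28 in COS and from 4.04 to 7.61 in CES, with the highest sum in COS replicate 2, and they did not separate the groups. Wider facts of the arrays were as follows. The 4 arrays lay on 1 slide, and from 70.7% to 88.9% of the spots were valid in a rat. Both arrays of a group held only that group, so the array entered the fit as a random block. Differences between arrays therefore cannot be fully told apart from those between groups.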

How the data were processed

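RNA from the DG of 8 rats with SE, 4 COS and 4 CES, was measured on 4 two-colour arrays with 1 rat per channel, and the groups, replicate numbers and dyes come from the sample records. The scanner files deposited by the authors hold intensity values for each spot and its local background, made with Agilent Feature Extraction 10.7.3.1 and not yet normalized, and probe positions of build rn4. A further deposited table gives log2 values, and each of its columns was found to be the background-subtracted median signal of that channel on the log2 scale, centred on its own median.

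A spot was valid when its mean foreground was at least 2 times its background, after the methods. Mean signals less the median background were divided by the channel median over valid spots, averaged over the spots of a gene valid in all 8 rats (27642 spots) and taken to log2. The iterative renormalization of the methods uses rats not analysed here and was not run. Spots that the software marked as outliers (1593) were kept, and no spot was saturated. Where its RefSeq accession matched the reference table (17512 of 41012 probes) a probe took the name given there, and otherwise the name in the files, while the 10 genes were taken by file name alone.

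Differences between CES and COS came from limma 3.58.1 under R 4.3.3. The model had a fixed term for the dye, and duplicateCorrelation (statmod 1.5.0) made the array a random block (correlation −0.00653). Tests were two-sided at a Benjamini-Hochberg adjusted p of 0.05. The fit was tested on simulated data. The median standard error of a difference was 0.197, and the number of arrays limits the precision. Single values were compared by exact permutation tests, which exchange single rats and take no account of array or dye. Same-numbered rats of the 2 groups, which share a dye, deviated together from their group means (correlations of 0.317, 0.209, 0.295 and 0.336 for numbers 1 to 4). The best match of COS replicates 1 to 4 was CES replicate 3, 2, 1 and 2, always a rat of the same dye. The fit with the number as a block is an alternative. Tables and figures were made in Python 3.11.15 with pandas 2.3.3, scipy 1.17.1, matplotlib 3.10.9 and numpy 2.4.6.

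The 10 genes and all lists were chosen with earlier results of these data known. All 10 genes were described, and other pathway genes were named only where called with groups that did not overlap, at most the 4 largest rises and falls of each list. The alternatives covered background correction, scaling, the valid-spot rule, probes, names, model terms, the methods' t-test, omission of each rat in turn and the deposited log2 values.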

Additional observations from a re-analysis of the deposited data

Results flagged for a closer look

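Asns in the COS rats was marked by the distance of its highest value from the others. COS replicate 3 had a log2 level of 5.92, and the other 3 COS rats lay between 5.38 and 5.40, so that the gap was 0.962 of the whole range of the group, above Dixon's critical value for 4 samples. The Asns spot was well above background in all 8 rats. In all, 18 groups of 4 rats were examined in this way, and chance marks about 1 group in 20.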

How the results depend on the processing

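Members called lower in CES numbered 6. The count was 0 after normexp background correction, over spots well above background in all rats and by the methods' t-test (2, 2 and 7 members at an unadjusted p under 0.05), 1 with scaling over spots valid in all rats and in the deposited log2 table, 2 after quantile normalization, and 3 after loess and Aquantile normalization, with no filter on valid spots and with foreground at least 3 times background. After normexp correction, over spots well above background and by the methods' t-test, 2987, 4822 and 6114 of all genes passed an unadjusted p of 0.05. Leaving out a rat gave 0 to 7 members called lower, with 0 without COS replicate 3 and 3 without CES replicate 1. There 888 and 2458 of all genes were called lower. The 7 was reached without CES replicate 2, with Asns called. It was also reached without CES replicate 4, where 9 members were tested and Trib3 was called. No member was called higher in any of the 24 alternatives. From 2 to 7 members passed an unadjusted p of 0.05 in either direction, beside 2987 to 10764 of all genes. In the order normexp, loess, quantile, scaling over spots valid in all rats, no filter, well above background, methods' t-test and deposited table, other pathway genes called lower (49) became 4, 23, 21, 18, 24, 10, 0 and 19, those called higher (1) became 0, 3, 2, 2, 0, 3, 0 and 2, all genes called lower (6054) became 454, 2223, 2146, 1720, 2711, 880, 0 and 1936, and all genes called higher (1238) became 123, 3306, 3187, 3352, 404, 2225, 0 and 3285. The methods' t-test had 6114 genes at an unadjusted p under 0.05, the threshold of the methods. Its counts of 0 are after Benjamini-Hochberg adjustment over all genes, which the methods do not use, and neither their fold cut-off nor their correction for redundant spots was applied. With foreground at least 3 times background the counts called lower were 29 and 2835, and with the processed signal no other pathway gene was called higher (0). Leaving out a rat gave 10 to 50 and 0 to 3 other pathway genes and 888 to 7090 and 251 to 1843 of all genes, lower and higher. Hspa5 turned to 0.12 under loess, 0.11 under quantile normalization, 0.16 with scaling over spots valid in all rats, 0.21 over spots well above background and 0.15 in the deposited table, where the median gene stood at 0.04, 0.08, 0.15, 0.16 and 0.12. Asns turned to 0.04 over spots well above background and 0.000222 in the deposited table. Relative to the median gene, 7 or 8 of the tested members stayed below 0 under each alternative that tested 8. The cause of these shifts was not tested. With the replicate number as a block 6 members and 48 other pathway genes were called lower, and 6147 of all genes were lower and 1077 higher, and no member changed its call. Both probes of a gene were also fitted singly, an alternative chosen after seeing the data. Signals near background limit Trib3 most, since 3 of 4 CES rats were not well above background.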
